A study of Mus musculus with 9 samples.

Results

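Tc22 cells were compared with untreated Tc0 cells in 6 RNA-seq libraries of mouse CD8+ T cells, 3 of each kind, taken from a series of 9 libraries by the cell name and treatment in the sample titles. Each kind was grown from the same 3 C57BL/6 mice, numbered 715, 725 and 728, so every Tc22 library had a Tc0 library of its own mouse. The labels give the agent as none for the Tc0 and Tc22 libraries and as CoA (coenzyme A) for the other 3, which were Tc0 cells of the same mice. All 9 came from CD8+ T cells activated for 3 days, and the protocol names a vehicle for cells not given CoA. The sources used here do not give the conditions that made the cells Tc22 rather than Tc0, the purity of the cells or the age and sex of the mice. Of 53679 genes in the deposited count table, 15348 held enough counts to be tested.

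The name Tc0 is used for CD8+ T cells activated with no polarising cytokine added. Tc22 is used for those that make interleukin-22, a cytokine that acts on epithelial cells rather than on leukocytes and is best known from barrier tissues such as gut and skin. Activated CD8+ T cells more often take a type 1 course, in which interferon gamma, acting through STAT and IRF factors, switches on a large set of defence genes. These include immunity-related GTPases and guanylate-binding proteins, which attack the vacuoles of intracellular parasites. NF-kB, the other pathway that recurs here, is a family of transcription factors held inactive by inhibitor proteins that they themselves induce.

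Counts are given as CPM, a gene's count over the library's total, put on a common scale with a correction for library composition, and 3 values in a row are always those of mice 715, 725 and 728. Il22 served as a check of the labels, with 0.755, 1.35 and 0.661 CPM in Tc0 and 6.80, 7.47 and 4.92 CPM in Tc22. Cd8a, a chain of the CD8 co-receptor, had 782, 778 and 803 CPM in Tc0 and 698, 739 and 749 CPM in Tc22, and differed by -0.11 on the log2 scale (SE 0.12, adjusted p = 0.600 by edgeR's quasi-likelihood test). Cd4, the marker of helper T cells, had 0.252, 0.140 and 0.633 CPM in Tc0 and 0.714, 0.859 and 1.37 CPM in Tc22 (adjusted p = 0.0484, 0.486 without the block). That call was lost (adjusted p in parentheses, here and for other genes) without Tc0 with CoA of mouse 715 (0.0513), Tc0 with CoA of mouse 728 (0.0846), Tc0 of mouse 715 (0.168), Tc0 of mouse 725 (0.198), Tc22 of mouse 715 (0.134), Tc22 of mouse 725 (0.193) or Tc22 of mouse 728 (0.0519). Every library thus carried the defining marker of its labelled cell type. Il22 was higher in each Tc22 library than in each Tc0 library.

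Total counts ranged from 21841034 to 36254631 over the 9 libraries. The Tc0 library of mouse 728, written Tc0-728, stood apart from the other 2 of its kind. On the first principal component of the 6 libraries, which held 48.5% of the variance, it scored 34.02, against -61.1 and -39.6 for the Tc0 libraries of mice 715 and 725 and -1.1, 24.6 and 43.2 for the Tc22 libraries. It had more counts from replication-dependent histone genes (0.668% of counts against 0.140% and 0.188% in the other Tc0 libraries). Mitochondrial genes gave 2.003% of its counts, against 3.97% and 3.33%. The Tc22 libraries had 0.252%, 0.408% and 0.493% for histone genes and 3.33%, 2.007% and 2.298% for mitochondrial genes. Mouse 728 had the highest histone share of each group, also in Tc0 with CoA (0.366%). Counts of genes are therefore given with and without it. In bulk RNA, fewer cells of a type and less RNA per cell cannot be told apart.

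By edgeR's quasi-likelihood test with mouse as a block, 380 genes were higher in Tc22 cells (2.48% of those tested) and 185 were lower (1.21%), 3.68% in all, at an adjusted p under 0.05. Without Tc0-728, 1555 genes were higher and 1114 lower. Family counts given without Tc0-728 thus come from the single-library fit with the most calls. Other removals gave as few as 148 higher (without Tc0 of mouse 725) and 53 lower (without Tc22 of mouse 725). Without the block, 87 were higher and 33 lower. A set of 113 higher and 41 lower genes was called with all libraries and again without each of the 9 libraries in turn. Genes named with a test belong to this set unless a loss is given. Where a Tc0 or Tc22 library held 3 counts of a gene or fewer, no fold change is given for it.

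Called rises had a median log2 fold change of 1.23, and 91 of them were at least 4-fold. Called falls had a median of -0.96, and 24 were at least 4-fold. The median Tc0 level was 5.33 CPM for genes that rose, 23.4 CPM for genes that fell and 13.8 CPM over all genes tested. At the Tc22 level the medians lay close together, 13.7 CPM for rises and 12.65 CPM for falls. Choosing genes by their difference from Tc0 itself favours low Tc0 levels among rises and high ones among falls, so no conclusion is drawn from these medians. In 319 of the 380 rises and 157 of the 185 falls, the 3 Tc22 libraries lay wholly above or below the 3 Tc0 libraries. Such separation held for 6.55% of all genes tested upward and 5.98% downward. Protein-coding genes made up 360 of the rises and 168 of the falls.

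**Figure D1:**
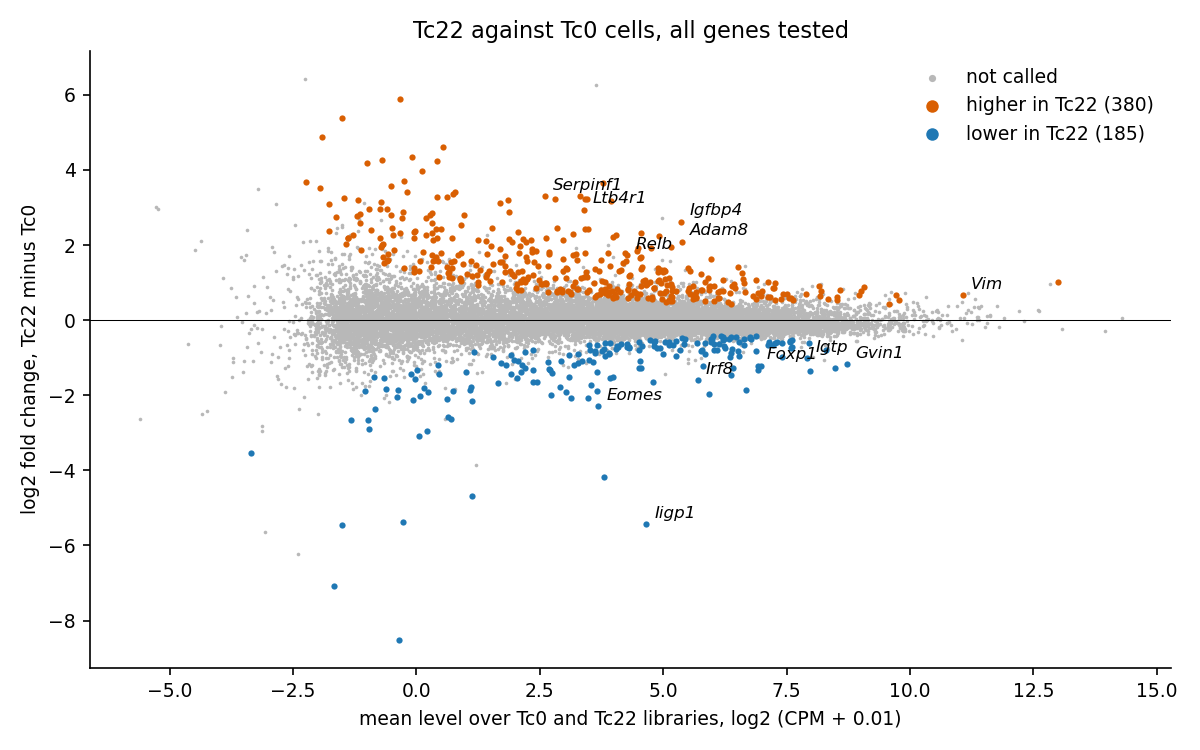
Each point is 1 of 15348 genes, placed by its mean level over the Tc0 and Tc22 libraries (log2 CPM) and its fitted log2 fold change, Tc22 minus Tc0. The 380 genes called higher (orange) lie mostly at low and middle levels, the 185 called lower (blue) are fewer, and the uncalled genes (grey) centre near 0.

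Immunity-related GTPases fell together. Of 14 members tested, 12 were lower in Tc22 cells, with a median log2 fold change of -1.28 over the 14, against -0.01 over all genes tested. The list was put together after its members' values had been seen, so its count is a description. Without Tc0-728, 11 were lower, and without the block, 4 were. Leaving out 1 library at a time gave 7 to 12 lower, the fewest without Tc22 of mouse 725. Most members sit in clusters on chromosome 11, and several have a RefSeq promoter (GRCm38.p6). Start sites of promoters are those of RefSeq. Stretches of 80 bases are shown because they carry, just before the start sites of genes that fell together, letters like those bound by STAT dimers (TTCNNNGAA) and by IRF factors (a pair of TTTC with 2 bases between them, or on the other strand a pair of GAAA). Matches are in capitals and all sequences run 5′ to 3′ on the strand of the gene.
Igtp, chr11:58199476-58199555, plus strand: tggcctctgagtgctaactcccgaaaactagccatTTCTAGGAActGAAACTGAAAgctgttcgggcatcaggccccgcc
Irgm2, chr11:58214872-58214951, plus strand: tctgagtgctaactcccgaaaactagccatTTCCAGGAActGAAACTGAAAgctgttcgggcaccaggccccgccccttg
Tgtp1, chr11:48992285-48992364, minus strand: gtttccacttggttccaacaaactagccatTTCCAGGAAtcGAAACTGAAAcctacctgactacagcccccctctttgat
Tgtp2, chr11:49064244-49064323, minus strand: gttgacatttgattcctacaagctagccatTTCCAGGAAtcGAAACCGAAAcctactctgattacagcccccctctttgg
Gm12185, chr11:48927219-48927298, minus strand: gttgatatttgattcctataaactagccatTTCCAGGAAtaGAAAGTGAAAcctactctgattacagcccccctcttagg
Gm12250, chr11:58183739-58183818, plus strand: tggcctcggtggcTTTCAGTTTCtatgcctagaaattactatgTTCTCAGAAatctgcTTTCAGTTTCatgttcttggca
Irgm1, chr11:48871421-48871500, minus strand: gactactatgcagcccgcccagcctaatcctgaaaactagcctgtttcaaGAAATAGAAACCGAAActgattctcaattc

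Igtp, Irgm2, Tgtp1, Tgtp2 and Gm12185 each held a STAT-like match followed by 2 bases and an IRF-like match, ending between 25 and 68 bases before the start site. The joint pattern was formed after these sequences had been read. In the 200 bases before the start site, on either strand, it occurred in these 5 genes among 10107 tested genes with a RefSeq promoter, or 0.049%. Their promoters are alike around it and the genes are related, so the 5 are not independent. Gm12250 had a STAT-like match between a pair of IRF-like ones, and Irgm1 had overlapping IRF-like matches with no STAT-like one in this stretch. For these genes RefSeq and GENCODE place the start differently. The Irgm1 stretch lies inside the GENCODE gene, and the Gm12250 stretch lies well before the GENCODE start at 58187739. GENCODE ends Gm12185 at 48992226, well beyond its stretch and beside that of Tgtp1. Among the 8 called members with a RefSeq promoter, 75.0% held a STAT-like and 87.5% an IRF-like match, against 5.59% and 2.493% of all 10107. Those 8 are related and not independent. Over all called genes with a promoter, STAT-like matches occurred in 9.123% of those higher and 9.848% of those lower. IRF-like matches occurred in 3.158% and 6.818%. The lower genes include the 8 related members. They were 6 of the 13 lower genes with a STAT-like match and 7 of the 9 with an IRF-like match. Letters of other factors were searched too, and some also differed from the share over all genes. Those of AP-1 occurred in 9.5% of genes higher, 4.5% of genes lower and 4.3% of all 10107. For ETS factors the shares were 6.3%, 5.3% and 14.9%. The rest are not reported here, and no share was tested. A match of letters is a description and not a measured binding site.

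Igtp (ENSMUSG00000078853, chromosome 11, 58199556 to 58207591, plus strand), a regulatory GTPase of the family, had 252, 386 and 336 CPM in Tc0 and 159, 166 and 152 CPM in Tc22. The Tc22 libraries were alike, and all lay below the lowest Tc0 library. Its log2 fold change was -1.01 (SE 0.12, adjusted p = 0.00295). Irgm1 (ENSMUSG00000046879, chromosome 11, 48861968 to 48871683, minus strand), another regulatory member, had 43.7, 111 and 82.7 CPM in Tc0 and 24.3, 38.02 and 35.4 CPM in Tc22 and fell as well (-1.22, SE 0.15, adjusted p = 0.00295, 0.141 without the block). Tgtp2, an effector GTPase that coats parasite vacuoles, had 36.4, 158 and 99.0 CPM in Tc0 and 13.7, 28.8 and 27.02 CPM in Tc22, and fell by more (-1.96, SE 0.25, adjusted p = 0.00309, 0.0997 without the block). Its neighbour Tgtp1 had 49.1, 195 and 122.9 CPM in Tc0 and 21.99, 62.6 and 43.3 CPM in Tc22, so that the Tc22 library of mouse 725 lay above the Tc0 library of mouse 715 while each mouse went down (-1.45, SE 0.18, adjusted p = 0.00302, 0.305 without the block). GENCODE lists Gm12250 as a processed pseudogene, although RefSeq gives it a promoter, so that label is uncertain. Gm12250 had 41.4, 62.0 and 51.2 CPM in Tc0 and 24.5, 34.2 and 29.7 CPM in Tc22 (-0.80, SE 0.10, adjusted p = 0.00309, 0.121 without the block). In all of these, the Tc0 library of mouse 715 was the lowest and that of mouse 725 the highest of the Tc0 libraries. Tgtp1 and Tgtp2 are near copies, so how reads were shared between them is uncertain.

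A run of 4 neighbouring genes on chromosome 18, Gm4951, Gm4841, F830016B08Rik and Iigp1, were all lower. Iigp1 had 8.12, 86.03 and 54.1 CPM in Tc0 and 0.578, 1.24 and 1.06 CPM in Tc22 (-5.43, SE 0.53, adjusted p = 0.000973). The Tc0 library of mouse 715 was far below the other 2, yet still above every Tc22 library. Gm4951, a predicted family member, had 1.35, 6.11 and 5.15 CPM in Tc0 and 0.102, 0.119 and 0.224 CPM in Tc22 (adjusted p = 0.00155). Gm4841 and F830016B08Rik came close to the floor in Tc22 libraries, where they did not exceed 0.0593 and 0.0296 CPM. The other called members were Irgm2 (-0.91, SE 0.15, adjusted p = 0.00978, 0.104 without the block), Ifi47 (-0.88, SE 0.15, adjusted p = 0.0106, 0.288 without the block) and Gm12185 (-1.34, SE 0.29, adjusted p = 0.0369, 0.299 without the block). Calls lost with single libraries were Irgm2 without Tc22 of mouse 725 (0.0782); Ifi47 without Tc0 of mouse 725 (0.0516) or Tc22 of mouse 725 (0.0822); Gm12185 without Tc0 with CoA of mouse 728 (0.0526), Tc0 of mouse 725 (0.184), Tc0 of mouse 728 (0.0533), Tc22 of mouse 715 (0.0918), Tc22 of mouse 725 (0.231) or Tc22 of mouse 728 (0.0569); Gm4841 without Tc0 of mouse 725 (0.0516) or Tc22 of mouse 725 (0.0663); and F830016B08Rik without Tc0 of mouse 725 (0.0963), Tc22 of mouse 715 (0.0528) or Tc22 of mouse 725 (0.105).

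Other interferon-inducible GTPases went the same way. Of 9 very large interferon-inducible GTPase genes tested, whose products are among the largest GTPases known, 7 were lower (8 without Tc0-728, and 2 without the block), with a median of -1.20. Leaving out 1 library at a time gave 2 to 8 lower, the fewest without Tc22 of mouse 725. Gvin1 (ENSMUSG00000045868, chromosome 7, 106156556 to 106215326, minus strand) had 421, 851 and 496 CPM in Tc0 and 226.1, 274.1 and 259 CPM in Tc22. All 3 Tc22 libraries lay below the lowest Tc0 library (-1.17, SE 0.17, adjusted p = 0.00470). Gm4070, a close relative near it on chromosome 7, had 245, 523.7 and 326 CPM in Tc0 and 119.6, 169.6 and 129 CPM in Tc22 (-1.35, SE 0.18, adjusted p = 0.00436). These genes are near copies and reads may have been split between them. Of 10 guanylate-binding protein genes tested, 3 neighbours on chromosome 5, Gbp4, Gbp6 and Gbp10, were lower, and 3 without Tc0-728 (2 without the block). Leaving out 1 library at a time gave 0 to 5 lower, with 0 when Tc22 of mouse 725 was left out. Gbp10 had 6.20, 42.2 and 30.6 CPM in Tc0 and 1.70, 0.919 and 1.34 CPM in Tc22 (-4.18, SE 0.64, adjusted p = 0.00703). Gbp6 had 105, 219.7 and 155 CPM in Tc0 and 57.9, 39.4 and 35.8 CPM in Tc22 (-1.85, SE 0.28, adjusted p = 0.00730), and Gbp4 99.9, 157 and 114 CPM in Tc0 and 83.5, 74.9 and 71.3 CPM in Tc22 (-0.67, SE 0.15, adjusted p = 0.0357, 0.116 without the block). These calls were lost with single libraries: Gbp10 without Tc22 of mouse 725 (0.0503); Gbp6 without Tc22 of mouse 725 (0.0559); and Gbp4 without Tc0 with CoA of mouse 728 (0.0567), Tc0 of mouse 725 (0.168), Tc22 of mouse 725 (0.235) or Tc22 of mouse 728 (0.0806). Gbp2 and Gbp7, on chromosome 3, did not pass, with log2 fold changes of -0.84 (adjusted p = 0.129) and -0.49 (adjusted p = 0.280).

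**Figure D2:**
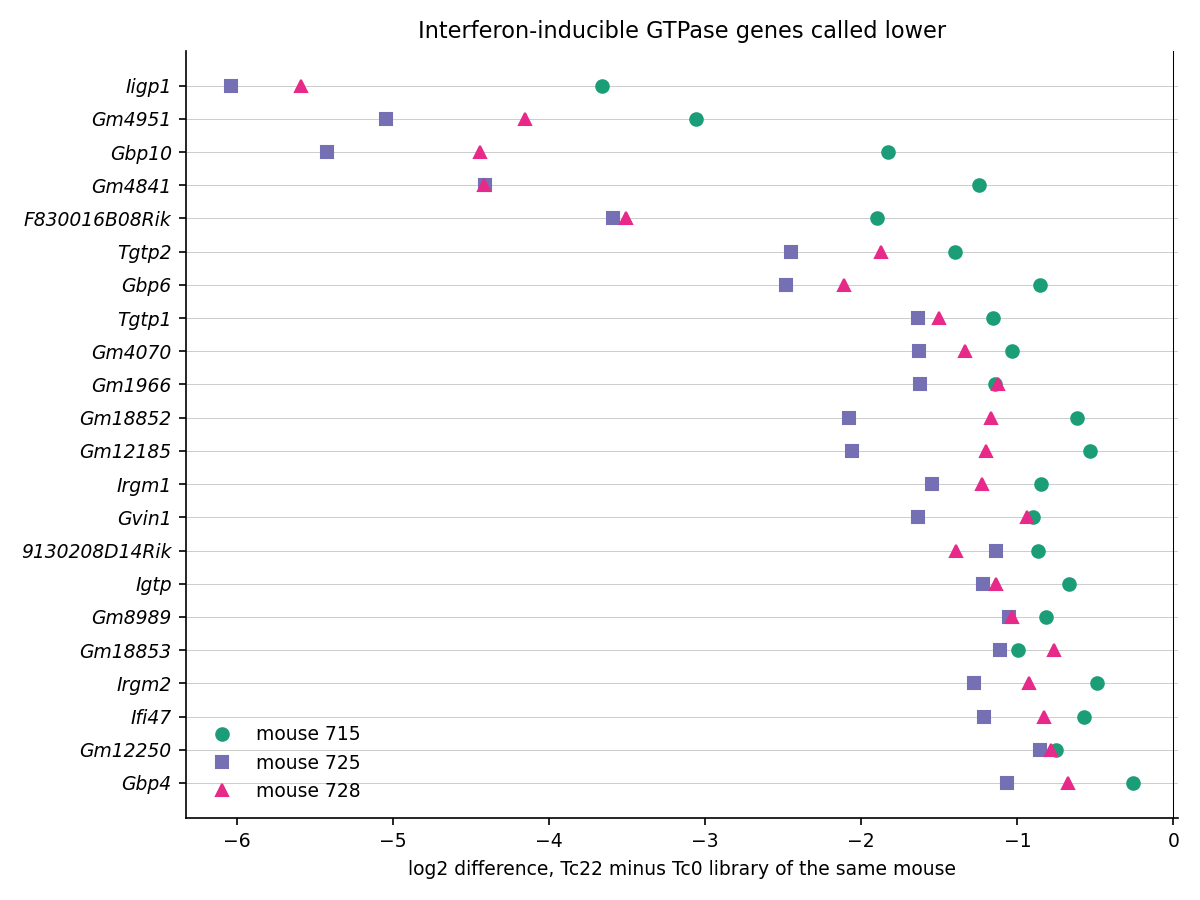
Log2 difference between the Tc22 and the Tc0 library of each mouse (x axis, log2 CPM with a prior count of 2) for the interferon-inducible GTPase genes called lower, with 1 point a mouse and a vertical line at 0. Each of the 22 genes lies below 0 in all 3 mice. Mouse 715 has the smallest difference in 20 of the 22, and Iigp1 has the largest difference of the 22 in each mouse.

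Of 20 genes of the interferon gamma receptor, its kinases and its signalling axis, 3 were lower and 1 was higher (3 and 4 without Tc0-728, and 2 lower without the block). Irf8 (ENSMUSG00000041515, chromosome 8, 120736358 to 120756694, plus strand), an interferon-induced transcription factor, had 52.3, 79.6 and 104 CPM in Tc0 and 23.6, 26.05 and 25.9 CPM in Tc22. The Tc22 libraries were within 3 CPM of each other and the groups were far apart (-1.59, SE 0.15, adjusted p = 0.000801). Nlrc5 (ENSMUSG00000074151, chromosome 8, 94434356 to 94527272, plus strand), the transactivator of MHC class I genes, had 131.9, 180.3 and 217 CPM in Tc0 and 69.8, 76.98 and 78.5 CPM in Tc22 (-1.21, SE 0.15, adjusted p = 0.00302). Ifngr2, the signalling chain of the receptor, was the member that rose, with 8.50, 9.51 and 12.3 CPM in Tc0 and 13.3, 17.5 and 23.6 CPM in Tc22 (0.83, SE 0.15, adjusted p = 0.0160, 0.247 without the block). It was not called without Tc0 of mouse 715 (0.0700), Tc0 of mouse 725 (0.0724), Tc22 of mouse 725 (0.114) or Tc22 of mouse 728 (0.0512). Ifngr1, the binding chain, had 180.0, 293 and 279 CPM in Tc0 and 161, 279.7 and 276.4 CPM in Tc22 and did not pass (-0.08, adjusted p = 0.857). Irf1 did not pass either (-0.35, adjusted p = 0.340).

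Not every gene known to answer to interferon fell. The interferon-induced transmembrane proteins, small membrane proteins that restrict virus entry, went up: 3 of 4 tested were higher, with a median of 1.70, also 3 without Tc0-728, and 2 without the block. Ifitm2 had 6.89, 3.78 and 6.14 CPM in Tc0 and 28.6, 21.7 and 27.5 CPM in Tc22 (2.22, SE 0.20, adjusted p = 0.000777). Ifitm1 had 2.01, 1.59 and 1.93 CPM in Tc0 and 8.77, 9.04 and 6.81 CPM in Tc22 (2.12, SE 0.21, adjusted p = 0.00105). Both sets of libraries were well apart. Ifitm3 was low, at 0.283, 0.699 and 0.688 CPM in Tc0 and 0.952, 1.78 and 1.31 CPM in Tc22 (1.27, SE 0.28, adjusted p = 0.0385, 0.324 without the block). Its call did not hold without Tc0 with CoA of mouse 728 (0.0556), Tc0 of mouse 715 (0.166), Tc0 of mouse 725 (0.184), Tc22 of mouse 715 (0.143), Tc22 of mouse 725 (0.161) or Tc22 of mouse 728 (0.0708). These 3 genes lie next to each other on chromosome 7 (140954837 to 141072400, GRCm38) together with B4galnt4, a glycosyltransferase gene that also rose, with 2.08, 1.77 and 2.59 CPM in Tc0 and 8.46, 7.20 and 8.38 CPM in Tc22 (1.90, SE 0.18, adjusted p = 0.000801). Family members are alike in sequence, which leaves the division of reads among them uncertain.

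NF-kB subunits and their inhibitors were among the rises. Of 27 tested, 10 were higher (14 without Tc0-728, with 1 lower, and 6 without the block), and the other 17 did not pass. Leaving out 1 library at a time gave 7 to 14 higher and 0 to 1 lower. The median over the 27 was 0.61. This list, too, was drawn up after values had been seen. Relb (ENSMUSG00000002983, chromosome 7, 19606217 to 19629438, minus strand), the subunit of the non-canonical pathway, had 7.93, 6.44 and 12.6 CPM in Tc0 and 23.5, 30.97 and 34.4 CPM in Tc22. Each Tc22 library lay above every Tc0 library (1.74, SE 0.18, adjusted p = 0.00119). Its partner Nfkb2 had 23.3, 18.1 and 40.3 CPM in Tc0 and 57.8, 68.8 and 72.3 CPM in Tc22 (1.32, SE 0.21, adjusted p = 0.00906, 0.0761 without the block). Among the inhibitors, Nfkbie had 9.51, 8.63 and 11.6 CPM in Tc0 and 21.7, 23.9 and 27.8 CPM in Tc22 (1.299, SE 0.17, adjusted p = 0.00380), and Bcl3, an atypical one that can also activate, had 5.89, 4.43 and 9.61 CPM in Tc0 and 14.2, 10.9 and 18.3 CPM in Tc22 (1.15, SE 0.18, adjusted p = 0.00829, 0.161 without the block). In both Bcl3 and Nfkb2, the Tc0 library of mouse 728 was the highest of its group. Tnfaip3, the ubiquitin-editing enzyme A20 that shuts the pathway off, had 51.6, 63.98 and 71.7 CPM in Tc0 and 112, 135 and 152 CPM in Tc22 (1.09, SE 0.15, adjusted p = 0.00433). Birc3, a ubiquitin ligase of the TNF receptor complex, had 66.6, 60.9 and 60.3 CPM in Tc0 and 105, 118 and 118 CPM in Tc22 with little spread (0.85, SE 0.10, adjusted p = 0.00295). Each of these 6 genes separated the groups completely. Zc3h12c and Zc3h12d, from the family of RNases that degrade cytokine mRNAs, rose as well. The first was low, at 0.755, 0.560 and 0.358 CPM in Tc0 and 2.89, 3.17 and 3.45 CPM in Tc22 (2.52, SE 0.38, adjusted p = 0.00648), and the second had 59.96, 46.8 and 49.8 CPM in Tc0 and 91.9, 81.1 and 95.8 CPM in Tc22 (0.79, SE 0.11, adjusted p = 0.00437, 0.0561 without the block).

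Interleukin-1 family receptors include activators of NF-kB, decoys and inhibitory members. Of 10 interleukin-1 family receptors and decoys tested, 4 were higher: Il1r1, Il1r2, Il1rl2 and Sigirr (3 without Tc0-728, with 1 lower, and 2 without the block). Il1r2 (ENSMUSG00000026073, chromosome 1, 40074079 to 40125231, plus strand), a decoy that binds interleukin-1 without signalling, had 1.04, 0.839 and 1.10 CPM in Tc0 and 3.88, 4.77 and 4.32 CPM in Tc22. No Tc0 library came near a Tc22 library (2.12, SE 0.27, adjusted p = 0.00309). The signalling receptor Il1r1 had 0.0944, 0.233 and 0.0826 CPM in Tc0 and 2.31, 1.99 and 1.76 CPM in Tc22. The calls of the other 2 were lost without most single libraries, with adjusted p up to 0.188 for Il1rl2, the interleukin-36 receptor, and 0.167 for Sigirr, an inhibitory member. These were Il1rl2 without Tc0 with CoA of mouse 728 (0.0508), Tc0 of mouse 715 (0.0597), Tc0 of mouse 725 (0.188), Tc0 of mouse 728 (0.0526), Tc22 of mouse 715 (0.0854), Tc22 of mouse 725 (0.0901) or Tc22 of mouse 728 (0.0865); and Sigirr without Tc0 with CoA of mouse 728 (0.0513), Tc0 of mouse 715 (0.141), Tc0 of mouse 725 (0.162), Tc22 of mouse 715 (0.154) or Tc22 of mouse 725 (0.167). Of 32 TNF superfamily ligands and receptors, 7 were higher and 3 lower, the same counts as without Tc0-728 (2 and 2 without the block), and the median was -0.03. Leaving out 1 library at a time gave 2 to 7 higher and 2 to 3 lower. Tnfrsf4, the co-stimulatory receptor OX40, had 44.5, 26.8 and 43.8 CPM in Tc0 and 86.7, 63.3 and 81.8 CPM in Tc22 (1.03, SE 0.13, adjusted p = 0.00308, 0.0791 without the block). Tnfrsf25, the death receptor DR3, had 0.976, 0.653 and 0.853 CPM in Tc0 and 2.75, 2.37 and 3.55 CPM in Tc22 (1.78, SE 0.26, adjusted p = 0.00590). On the other side, Tnfsf10, the death ligand TRAIL, had 31.9, 35.95 and 26.3 CPM in Tc0 and 13.6, 15.7 and 14.5 CPM in Tc22 (-1.10, SE 0.16, adjusted p = 0.00582). Casp4 and Casp6, both caspase genes, rose, with 33.2, 22.4 and 17.4 CPM in Tc0 and 56.7, 39.1 and 44.1 CPM in Tc22 for Casp4 (0.97, SE 0.14, adjusted p = 0.00471, 0.200 without the block) and 17.1, 21.03 and 20.4 CPM in Tc0 and 45.5, 35.8 and 38.9 CPM in Tc22 for Casp6 (1.03, SE 0.15, adjusted p = 0.00496).

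**Figure D3:**
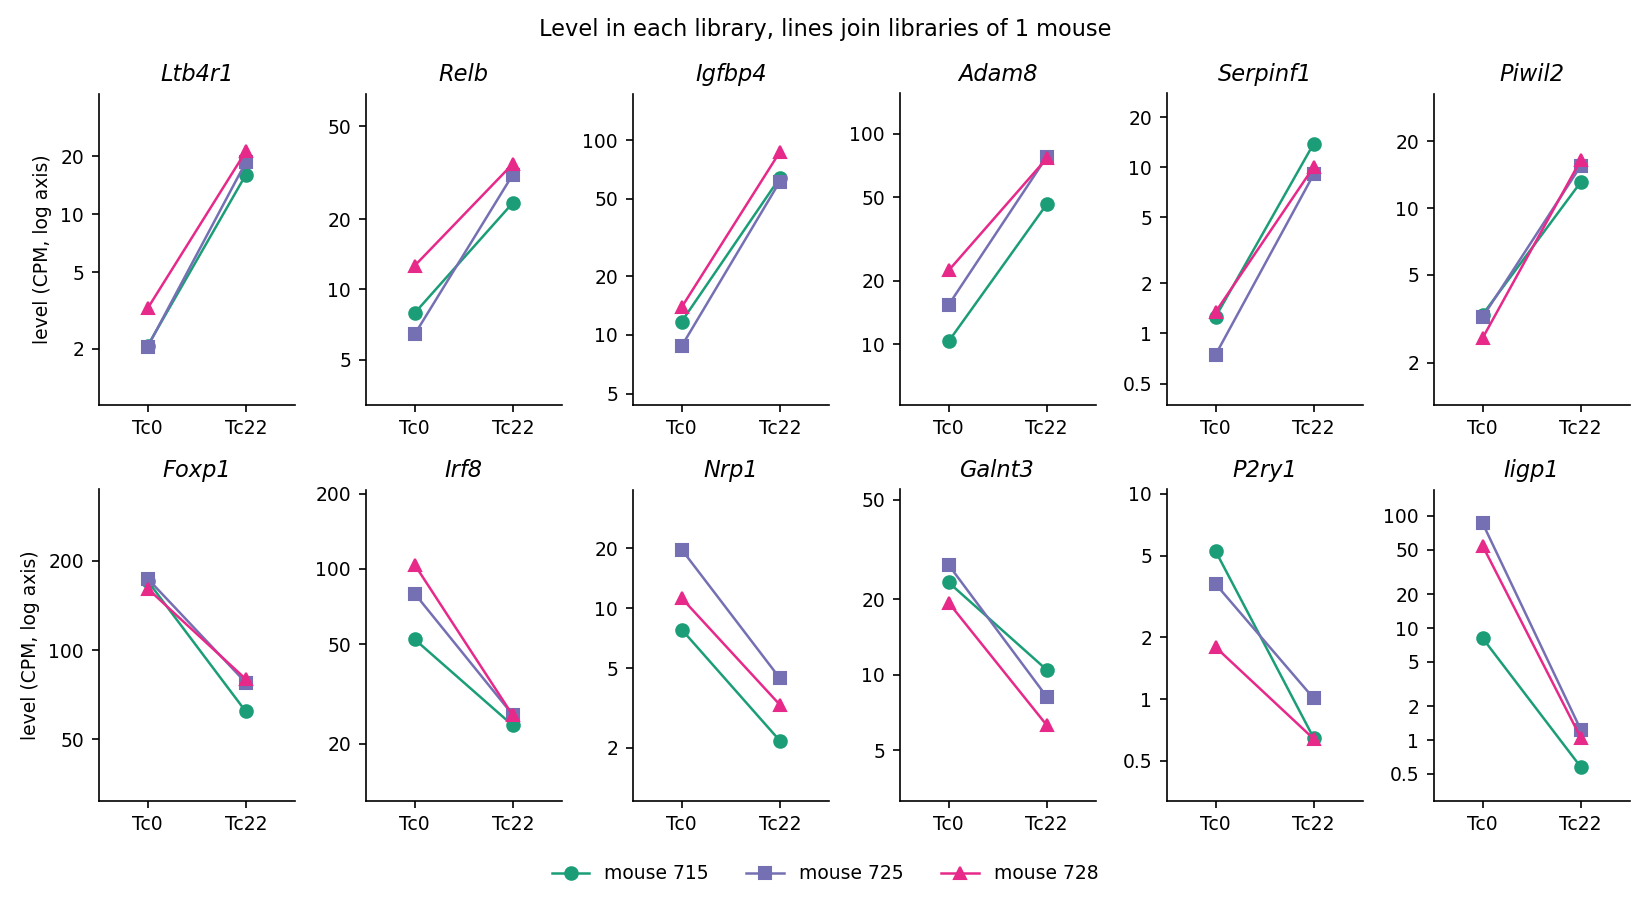
Level in each library (CPM, log axis) of 12 genes, with a line joining the Tc0 and the Tc22 library of the same mouse. In the 6 upper panels (Ltb4r1, Relb, Igfbp4, Adam8, Serpinf1, Piwil2) every line rises, and in the 6 lower panels (Foxp1, Irf8, Nrp1, Galnt3, P2ry1, Iigp1) every line falls.

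Receptors for chemoattractants, lipids and nucleotides changed in both directions. Of 40 receptors for lipids, nucleotides and protons, 10 were higher and 3 lower (11 and 4 without Tc0-728, and 1 higher without the block), with a median of 0.28. Leaving out 1 library at a time gave 2 to 13 higher and 1 to 4 lower. Ltb4r1 (ENSMUSG00000046908, chromosome 14, 55765962 to 55768494, plus strand), through which leukotriene B4 attracts leukocytes, had 2.08, 2.05 and 3.25 CPM in Tc0 and 16.01, 18.6 and 21.2 CPM in Tc22. The lowest Tc22 library was several times above the highest Tc0 library (2.94, SE 0.20, adjusted p = 0.000144). P2rx7 (ENSMUSG00000029468, chromosome 5, 122643911 to 122691432, plus strand), an ion channel opened by extracellular ATP, had 1.07, 2.33 and 2.26 CPM in Tc0 and 3.20, 9.01 and 7.58 CPM in Tc22 (1.78, SE 0.25, adjusted p = 0.00450, 0.215 without the block). P2ry1 (ENSMUSG00000027765, chromosome 3, 61002795 to 61008982, plus strand), a receptor for ADP, went the other way, with 5.26, 3.64 and 1.79 CPM in Tc0 and 0.646, 1.01 and 0.639 CPM in Tc22 (-2.14, SE 0.30, adjusted p = 0.00442, 0.0627 without the block). Gpr65, a proton sensor, had 45.3, 49.9 and 39.6 CPM in Tc0 and 26.8, 31.2 and 26.95 CPM in Tc22, and its groups were apart (-0.66, SE 0.11, adjusted p = 0.0111, 0.152 without the block). Its call was lost without Tc0 of mouse 715 (0.0579), Tc22 of mouse 715 (0.0918) or Tc22 of mouse 725 (0.0901). Of the 13, Ltb4r1, P2rx7 and P2ry1 were called without each single library.

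Of 17 chemokine receptors, 4 were higher and 1 lower (3 and 1 without Tc0-728, and 2 higher without the block), with a median of 0.52. Cxcr1, which neutrophils use to follow CXC chemokines, was close to the floor in Tc0 libraries, with 0, 0.140 and 0.0551 CPM in Tc0 and 0.986, 1.01 and 1.47 CPM in Tc22 (adjusted p = 0.00787). Cxcr2, its neighbour on chromosome 1, had 0.220, 0.0466 and 0.0551 CPM in Tc0 and 0.918, 0.652 and 0.767 CPM in Tc22 (adjusted p = 0.00995) and was not called without Tc0 of mouse 725 (0.0563) or Tc22 of mouse 725 (0.0545). Cxcr3, the receptor that guides type 1 effector cells, was the one that fell, with 8.88, 20.6 and 25.9 CPM in Tc0 and 4.01, 9.66 and 7.002 CPM in Tc22. Its groups overlapped, since the Tc22 library of mouse 725 lay above the Tc0 library of mouse 715 (-1.38, SE 0.23, adjusted p = 0.0111, 0.217 without the block). Its call was lost without Tc0 of mouse 725 (0.0545) or Tc22 of mouse 715 (0.0560). Gipr, the receptor of a gut hormone that raises insulin release, had 0.220, 0.793 and 1.18 CPM in Tc0 and 5.44, 4.03 and 7.61 CPM in Tc22 (3.12, SE 0.42, adjusted p = 0.00433, 0.100 without the block). Lilr4b and Lilrb4a are neighbouring genes of immunoglobulin-like receptors, near copies that may share reads. Lilr4b had 11.9, 11.6 and 8.37 CPM in Tc0 and 52.96, 46.05 and 50.5 CPM in Tc22 (2.25, SE 0.16, adjusted p = 0.000177). Lilrb4a had 22.002, 12.6 and 10.4 CPM in Tc0 and 70.1, 47.3 and 52.3 CPM in Tc22 (1.96, SE 0.18, adjusted p = 0.000801).

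Secreted and surface proteins of the cell's surroundings were among the rises with the smallest p. Igfbp4 (ENSMUSG00000017493, chromosome 11, 99041244 to 99054392, plus strand), a carrier of insulin-like growth factors, had the smallest p of all genes, with 11.7, 8.77 and 13.9 CPM in Tc0 and 63.9, 61.2 and 86.7 CPM in Tc22. The lowest Tc22 library was more than 4 times the highest Tc0 library (2.62, SE 0.14, adjusted p = 8.47e-05). Adam8 (ENSMUSG00000025473, chromosome 7, 139978932 to 139992562, minus strand), a membrane metalloprotease of leukocytes, had 10.3, 15.4 and 22.4 CPM in Tc0 and 46.2, 77.6 and 76.4 CPM in Tc22 (2.09, SE 0.14, adjusted p = 0.000144). Of 13 serpins tested, 4 were higher and 1 lower (4 and 2 without Tc0-728, and 2 higher without the block). Serpinf1 (ENSMUSG00000000753, chromosome 11, 75409769 to 75422701, minus strand), a serpin without protease inhibition that blocks vessel growth, had 1.26, 0.746 and 1.35 CPM in Tc0 and 13.9, 9.07 and 10.04 CPM in Tc22 (3.29, SE 0.23, adjusted p = 0.000144). Serpinb9b, from the group of granzyme inhibitors, had 0.126, 0.140 and 0.0826 CPM in Tc0 and 1.26, 1.39 and 0.608 CPM in Tc22 (adjusted p = 0.00375, 0.0629 without the block). All 4 kept the groups apart.

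Of 42 collagens, laminins and other matrix proteins, 7 were higher and 1 lower (10 and 1 without Tc0-728, and 1 each without the block), with a median of 0.24. Lum, the small proteoglycan lumican, had 1.13, 0.606 and 0.358 CPM in Tc0 and 11.1, 4.65 and 3.77 CPM in Tc22 (3.21, SE 0.42, adjusted p = 0.00375, 0.0676 without the block). Sdc4, the heparan sulfate carrier syndecan-4, had 10.1, 11.8 and 18.1 CPM in Tc0 and 27.6, 32.4 and 40.7 CPM in Tc22 (1.35, SE 0.16, adjusted p = 0.00270, 0.0519 without the block). Podnl1, another leucine-rich proteoglycan, had 2.64, 6.30 and 8.76 CPM in Tc0 and 17.3, 31.5 and 32.8 CPM in Tc22 (2.26, SE 0.25, adjusted p = 0.00160). Mouse 715 was the lowest in Podnl1 and the highest in Lum, in both groups. Fbln2, the elastic fibre protein fibulin-2, was the matrix gene that fell, with 2.17, 1.73 and 1.65 CPM in Tc0 and 0.0680, 0.326 and 0.224 CPM in Tc22 (adjusted p = 0.00671). Of 20 integrin subunits, 3 were higher and 1 lower (5 and 1 without Tc0-728, and 1 higher without the block). Itga3, the alpha chain of a laminin receptor, had 1.51, 0.653 and 1.76 CPM in Tc0 and 8.94, 3.97 and 5.24 CPM in Tc22 (2.16, SE 0.29, adjusted p = 0.00412). Itgb1, the shared beta-1 chain, had 272, 279.6 and 184 CPM in Tc0 and 151.3, 151.1 and 138 CPM in Tc22 and fell (-0.72, SE 0.12, adjusted p = 0.0123, 0.106 without the block). That call was lost without Tc0 of mouse 715 (0.0615), Tc0 of mouse 725 (0.0724), Tc22 of mouse 715 (0.0767) or Tc22 of mouse 725 (0.0962). Emp1, a membrane protein of the claudin-like superfamily, had 7.87, 13.3 and 13.02 CPM in Tc0 and 30.97, 47.1 and 49.9 CPM in Tc22 (1.91, SE 0.17, adjusted p = 0.000777), and Cd24a, a heavily glycosylated surface protein, had 38.1, 47.2 and 41.3 CPM in Tc0 and 11.7, 13.4 and 15.6 CPM in Tc22 (-1.64, SE 0.15, adjusted p = 0.000777).

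**Figure D4:**
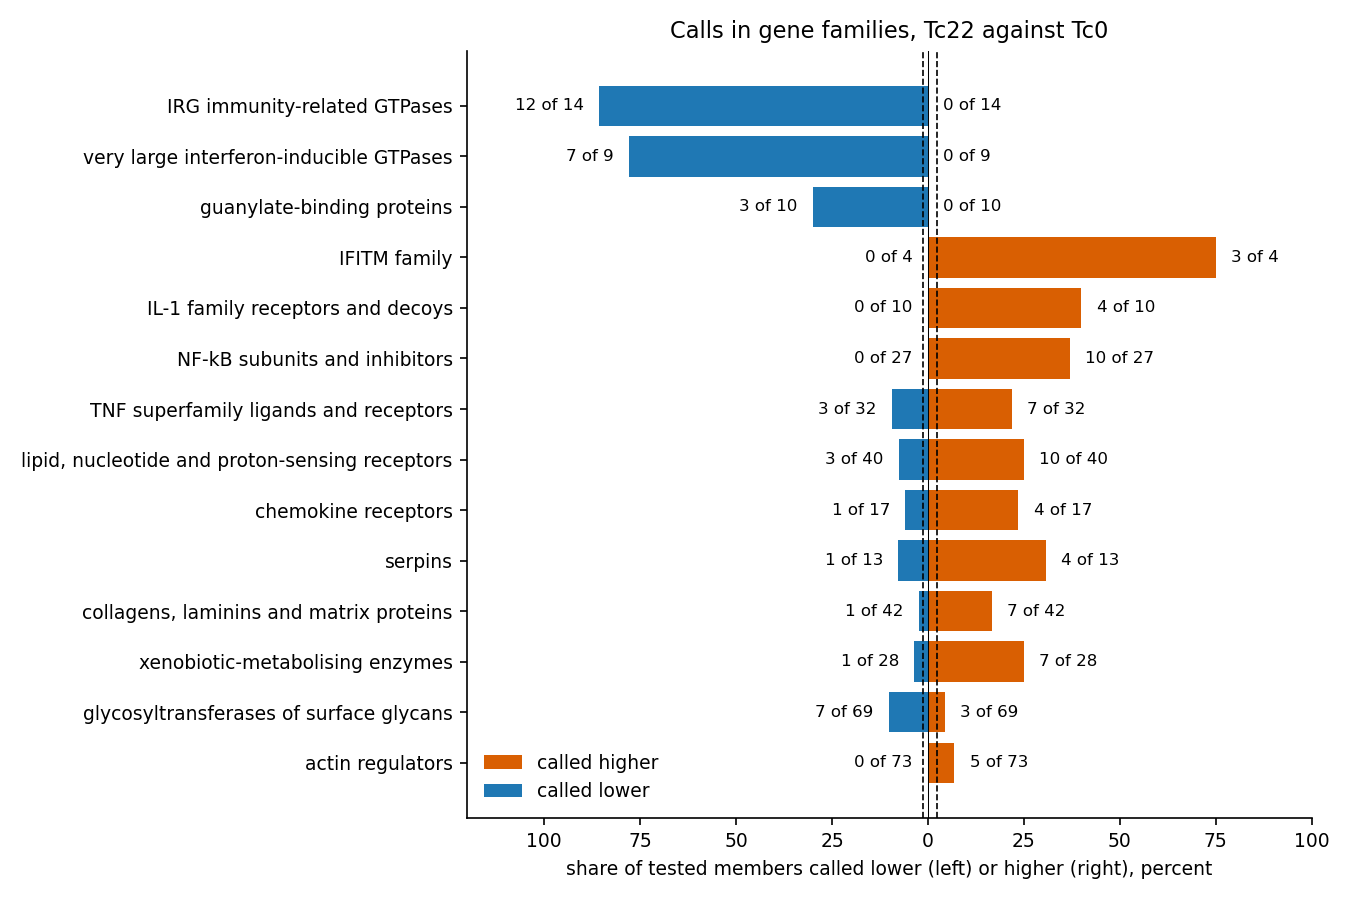
Share of tested members called higher (orange, to the right) and lower (blue, to the left) in Tc22 cells for 14 gene families, with the counts beside the bars and dashed lines at the shares over all genes tested (2.48% and 1.21%). The immunity-related and very large GTPases stand out on the left, the IFITM family, interleukin-1 receptors and NF-kB genes on the right. Of the actin regulators, 5 of 73 were called, all higher.

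Enzymes that handle small molecules were also among the rises. Of 28 xenobiotic-metabolising enzymes, 7 were higher and 1 lower (9 and 1 without Tc0-728, and 4 higher without the block), with a median of 0.43. Gstt1 (ENSMUSG00000001663, chromosome 10, 75783813 to 75798584, minus strand), a theta-class glutathione transferase, had 11.6, 4.99 and 7.16 CPM in Tc0 and 43.8, 30.2 and 42.3 CPM in Tc22 (2.33, SE 0.21, adjusted p = 0.000777). Its neighbours Gstt2 and Gstt3 had 32.9, 21.8 and 43.03 CPM in Tc0 and 98.7, 59.2 and 69.9 CPM in Tc22 (1.24, SE 0.17, adjusted p = 0.00455, 0.0811 without the block) and 7.995, 5.55 and 6.11 CPM in Tc0 and 18.3, 12.6 and 13.9 CPM in Tc22 (1.19, SE 0.16, adjusted p = 0.00447). Tc22 libraries were the higher ones in all 3 genes, which are related in sequence. Dgat1, which makes triacylglycerol, had 11.2, 12.1 and 15.4 CPM in Tc0 and 31.6, 33.4 and 37.8 CPM in Tc22 (1.42, SE 0.13, adjusted p = 0.000777). Upp1, the uridine phosphorylase that frees ribose from uridine, had 0.346, 0.560 and 0.551 CPM in Tc0 and 2.14, 3.23 and 4.89 CPM in Tc22 (2.79, SE 0.23, adjusted p = 0.000552). Slc2a6, a member of the glucose transporter family, had 1.98, 1.63 and 3.03 CPM in Tc0 and 9.79, 9.13 and 11.6 CPM in Tc22 (2.20, SE 0.23, adjusted p = 0.00136). It was the one of 5 solute carriers called higher that kept its call without each library, out of 188 tested with 1 lower (24 and 10 without Tc0-728, and 1 higher without the block). The 5 were 2.66% of the solute carriers, near the 2.48% over all genes. Cyp11a1, which cuts the side chain of cholesterol to start steroid synthesis, had 6.67, 1.07 and 2.06 CPM in Tc0 and 51.6, 14.3 and 17.01 CPM in Tc22. Mouse 715 was the highest in each group, and the groups did not overlap (3.16, SE 0.40, adjusted p = 0.00308, 0.117 without the block). Abcb1b, a multidrug efflux pump, fell, with 95.7, 93.4 and 72.2 CPM in Tc0 and 50.002, 53.2 and 46.01 CPM in Tc22 (-0.80, SE 0.10, adjusted p = 0.00308).

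Of 69 glycosyltransferases of surface glycans, 7 were lower and 3 higher (7 and 8 without Tc0-728, and 1 each without the block), and their median was 0.06. Galnt3 (ENSMUSG00000026994, chromosome 2, 66082766 to 66124994, minus strand), which starts mucin-type O-glycans, had 23.4, 27.4 and 19.4 CPM in Tc0 and 10.5, 8.18 and 6.30 CPM in Tc22 (-1.503, SE 0.15, adjusted p = 0.000900). Galnt3 and B4galnt4 were the 2 members called without each single library.

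Transcription factors went both ways. Foxp1 (ENSMUSG00000030067, chromosome 6, 98925338 to 99522721, minus strand), a forkhead factor that keeps T cells quiescent, had 171.05, 174.2 and 161 CPM in Tc0 and 62.1, 77.7 and 79.8 CPM in Tc22. The Tc22 libraries were below all Tc0 libraries by a wide margin (-1.21, SE 0.11, adjusted p = 0.000777). Of 25 nuclear receptors, 2 were higher and 2 lower (6 and 3 without Tc0-728). Pparg, a receptor for fatty acids, had 3.02, 3.73 and 2.20 CPM in Tc0 and 7.58, 9.01 and 7.45 CPM in Tc22 (1.44, SE 0.20, adjusted p = 0.00473, 0.0568 without the block). Nr4a3, an orphan receptor induced by T cell receptor signals, had 25.9, 15.2 and 12.4 CPM in Tc0 and 8.63, 4.06 and 3.68 CPM in Tc22 (-1.73, SE 0.20, adjusted p = 0.00222, 0.0997 without the block), and Thrb, a thyroid hormone receptor, had 18.4, 13.9 and 10.05 CPM in Tc0 and 7.48, 6.46 and 5.50 CPM in Tc22 (-1.09, SE 0.15, adjusted p = 0.00433, 0.111 without the block). In these 3 genes the groups did not overlap. All 4 calls of the list were lost without the block.

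Of 33 bHLH factors, 5 were higher and 1 lower (9 and 2 without Tc0-728). The 5 rises were lost without the block. Msc, the repressor musculin, had 0.0630, 0.280 and 0.138 CPM in Tc0 and 1.12, 1.27 and 1.06 CPM in Tc22 (adjusted p = 0.00662, 0.0646 without the block), and Bhlhe40, a stress- and clock-linked repressor, had 151.1, 194 and 253 CPM in Tc0 and 373, 332 and 403 CPM in Tc22 (0.91, SE 0.13, adjusted p = 0.00591, 0.0633 without the block). The list leaves out the Myc genes, which are bHLH factors too. Mycl, one of them, had 0.881, 0.420 and 0.496 CPM in Tc0 and 2.72, 2.82 and 2.53 CPM in Tc22 (2.18, SE 0.28, adjusted p = 0.00309). Batf3, an AP-1 family factor, had 5.70, 2.75 and 6.17 CPM in Tc0 and 18.9, 14.6 and 16.02 CPM in Tc22 (1.78, SE 0.28, adjusted p = 0.00852). Zfp608, a zinc finger protein of little-known function, had 11.8, 7.18 and 6.88 CPM in Tc0 and 32.5, 27.6 and 26.99 CPM in Tc22 (1.78, SE 0.17, adjusted p = 0.000827). In these 5 genes each Tc22 library was above each Tc0 library. Zfp608 was 1 of 2 genes called higher among 323 Zfp zinc finger genes, where the median was -0.17. Without Tc0-728, 10 of them were higher and 60 lower.

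Signalling genes that fell included a kinase, an adaptor and a co-receptor. Prkca (ENSMUSG00000050965, chromosome 11, 107933387 to 108343928, minus strand), protein kinase C alpha, had 124, 110.3 and 92.8 CPM in Tc0 and 59.2, 52.8 and 51.4 CPM in Tc22. It was close to a 2-fold fall in each mouse (-0.99, SE 0.09, adjusted p = 0.000801). Sh2d1a, the SLAM receptor adaptor SAP, had 72.1, 81.1 and 56.2 CPM in Tc0 and 37.9, 40.5 and 38.6 CPM in Tc22 (-0.83, SE 0.12, adjusted p = 0.00450). Nrp1 (ENSMUSG00000025810, chromosome 8, 128358604 to 128503363, plus strand), a co-receptor for semaphorins and vascular growth factor, had 7.84, 19.7 and 11.3 CPM in Tc0 and 2.18, 4.47 and 3.29 CPM in Tc22 (-1.92, SE 0.21, adjusted p = 0.00155, 0.0728 without the block). Cd83, an activation marker of the immunoglobulin superfamily, had 25.5, 15.6 and 11.9 CPM in Tc0 and 8.16, 2.79 and 2.43 CPM in Tc22 (-2.08, SE 0.29, adjusted p = 0.00442, 0.134 without the block). Regulators of G protein signalling split: Rgs18 fell, with 3.90, 2.70 and 1.79 CPM in Tc0 and 0.340, 0.533 and 0.416 CPM in Tc22 (-2.63, SE 0.38, adjusted p = 0.00514), while Rgs1 rose, with 109.8, 68.2 and 49.97 CPM in Tc0 and 243, 113 and 125 CPM in Tc22 (1.08, SE 0.14, adjusted p = 0.00412, 0.320 without the block). Mouse 715 had the highest Rgs1 of each group.

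Some guanine nucleotide exchange factors rose. Rapgef5 (ENSMUSG00000041992, chromosome 12, 117516479 to 117759737, plus strand), which activates Rap GTPases, had 9.79, 10.2 and 9.06 CPM in Tc0 and 38.003, 33.3 and 31.9 CPM in Tc22, with little spread in either group (1.83, SE 0.14, adjusted p = 0.000362). Mcf2l, another exchange factor, had 2.33, 0.560 and 1.10 CPM in Tc0 and 22.2, 6.52 and 9.30 CPM in Tc22 (3.23, SE 0.34, adjusted p = 0.00136). Genes better known from other tissues appeared as well. Piwil2 (ENSMUSG00000033644, chromosome 14, 70372477 to 70429383, minus strand), a PIWI protein that silences transposons in the germ line, had 3.31, 3.22 and 2.59 CPM in Tc0 and 13.1, 15.5 and 16.5 CPM in Tc22 (2.30, SE 0.19, adjusted p = 0.000496). Ermn, named for the myelin-associated protein ermin, had 2.36, 1.91 and 1.27 CPM in Tc0 and 24.1, 15.9 and 14.3 CPM in Tc22. Espn, an actin-bundling protein of hair cells, had 5.95, 4.71 and 10.05 CPM in Tc0 and 22.8, 20.1 and 25.3 CPM in Tc22 (1.80, SE 0.20, adjusted p = 0.00187, 0.0825 without the block). Kif1a, a motor of axonal transport, was near 0 in Tc0 libraries, with 0.0315, 0 and 0.0275 CPM in Tc0 and 1.33, 1.57 and 1.76 CPM in Tc22 (adjusted p = 0.00181). In each of these genes the 2 groups stood apart.

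Other secreted signalling proteins changed in both directions. Il21, made by helper and type 17 cells, had 0.252, 0.187 and 0 CPM in Tc0 and 4.49, 1.48 and 1.60 CPM in Tc22. The Tc0 library of mouse 728 had no count, and mouse 715 was the highest in Tc22 (adjusted p = 0.00909, 0.100 without the block). Tgfb3, a transforming growth factor, had 0.724, 1.03 and 2.78 CPM in Tc0 and 6.19, 5.81 and 8.28 CPM in Tc22 (2.35, SE 0.36, adjusted p = 0.00728, 0.190 without the block). Wnt10b, a Wnt ligand, fell, with 19.6, 10.03 and 5.75 CPM in Tc0 and 4.86, 2.79 and 2.21 CPM in Tc22 (-1.77, SE 0.22, adjusted p = 0.00308, 0.121 without the block). Il10, an anti-inflammatory relative of interleukin-22, had 1.38, 2.05 and 1.16 CPM in Tc0 and 0.204, 0.356 and 0.480 CPM in Tc22 (-2.12, SE 0.33, adjusted p = 0.00852) and was not called without Tc22 of mouse 725 (0.0699). Il10 was the member called among 5 tested of an interleukin-10 family list that leaves out Il22.

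Genes called in the same direction lay next to each other in places. The longest run was of 5 consecutive tested genes on chromosome 7 (140150628 to 140361671, GRCm38), Sprn, Olfr524, Cd163l1, 5830411N06Rik and Olfr60, all higher. Olfr524, an olfactory receptor gene, had 0.0630, 0.560 and 0.220 CPM in Tc0 and 0.578, 5.16 and 2.53 CPM in Tc22 (adjusted p = 0.000777, 0.149 without the block). Cd163l1, a scavenger receptor gene next to it that gamma delta T cells are known to express, had 0.0944, 0.793 and 0.441 CPM in Tc0 and 0.952, 2.93 and 2.17 CPM in Tc22 (adjusted p = 0.00437, 0.311 without the block). Both were lowest in mouse 715 and highest in mouse 725, in either group. Whether overlapping transcripts share reads here was not tested. On chromosome 2 (58045113 to 58195532), Ermn, Cytip and the antisense gene Gm13546 were all called higher, Cytip not without Tc0 with CoA of mouse 725 (0.0530), Tc0 with CoA of mouse 728 (0.101), Tc0 of mouse 715 (0.182), Tc0 of mouse 725 (0.144), Tc22 of mouse 715 (0.195), Tc22 of mouse 725 (0.158) or Tc22 of mouse 728 (0.100). Gm13546 had 7.05, 7.46 and 6.22 CPM in Tc0 and 20.02, 16.9 and 16.4 CPM in Tc22 (1.36, SE 0.14, adjusted p = 0.00150); whether counting used strand is not given, so its reads cannot be told from those of the gene on the other strand. Among long non-coding genes, 9330175E14Rik, beside Nlrc5 on chromosome 8, fell with it, at 10.04, 17.02 and 15.6 CPM in Tc0 and 2.92, 3.67 and 3.42 CPM in Tc22 (-2.07, SE 0.24, adjusted p = 0.00247).

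Between Tc22 cells and Tc0 cells given CoA, 32.0% of all genes tested differed. Comparisons with CoA-treated and untreated Tc0 cells share the Tc22 libraries, so they are not independent. The values are given side by side, followed by direct tests. Igfbp4 had 12.1, 14.2 and 17.4 CPM, Ltb4r1 2.05, 2.24 and 4.44 CPM and Foxp1 161, 160.2 and 153 CPM. These CoA-treated cells were near the untreated Tc0 level in each case. Ermn had 16.7, 17.8 and 9.85 CPM and Cd24a 12.6, 10.5 and 11.3 CPM. In both, the CoA-treated libraries were nearer to the Tc22 than to the untreated Tc0 libraries. Upp1 had 9.83, 15.6 and 15.002 CPM, above the Tc22 level, and Nr4a3 59.4, 62.3 and 37.6 CPM, above both others. Igtp had 224, 259 and 261 CPM, between the 2. Direct tests of Tc22 against Tc0 with CoA gave log2 differences of 2.27 (SE 0.14, adjusted p = 9.23e-05) for Igfbp4, 2.74 (SE 0.20, adjusted p = 0.000126) for Ltb4r1 and -1.12 (SE 0.11, adjusted p = 0.000349) for Foxp1. They gave -2.02 (SE 0.19, adjusted p = 0.000253) for Upp1, -3.36 (SE 0.21, adjusted p = 9.23e-05) for Nr4a3 and -0.63 (SE 0.12, adjusted p = 0.00477) for Igtp. Values of 0.30 (SE 0.17, adjusted p = 0.198) for Ermn and 0.24 (SE 0.15, adjusted p = 0.265) for Cd24a did not pass.

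Markers of other cell types were measured in the same libraries. Of 12 CD8 T cell markers edgeR called 0 (2 at an unadjusted p under 0.05, 0 by DESeq2 and 0 by limma-voom), with 2 higher without Tc0-728, and they summed to between 2831 and 3838 CPM in Tc0 and between 2839 and 3573 CPM in Tc22 libraries. Of 9 CD4 and regulatory T cell markers, 1 was higher, Cd4 (2 without Tc0-728), and they summed to 166.1 to 245.7 CPM in Tc0 and 142.8 to 229.5 CPM in Tc22 libraries. Natural killer cell markers summed to 10.3, 30.7 and 15.7 CPM in Tc0 and 21.2, 45.7 and 36.1 CPM in Tc22 libraries. The sum was higher in each mouse, with 1 of 5 called higher and all 5 above 0 on the log2 scale. B cell markers summed to 139.7, 327.2 and 390.6 CPM in Tc0 and 74.95, 270.4 and 254.1 CPM in Tc22 libraries, lower in each mouse. Gamma delta T cell markers summed to 136.7 to 187.3 CPM in Tc0 and 131.6 to 162.6 CPM in Tc22 libraries. In both lists edgeR called 0 of 5 (2 of each at an unadjusted p under 0.05, 1 of each by DESeq2 and 0 by limma-voom). Without Tc0-728, 2 of the gamma delta T cell markers were lower. Dendritic cell markers summed to 8.63 to 14.4 CPM in Tc0 and 22.9 to 29.1 CPM in Tc22 libraries. Batf3 was the member of that list called (2 members without Tc0-728). In the list of markers for type 3 innate lymphoid cells, which make interleukin-22 too, 5 of 7 were higher, among them Il22, Il23r, Il1r1 and Gpr183, and 1, Nrp1, was lower. Gpr183 was not called without Tc0 of mouse 715 (0.0858), Tc0 of mouse 725 (0.0901), Tc22 of mouse 725 (0.114) or Tc22 of mouse 728 (0.0635). Without the block, 1 of the 7 was called. The part of such cells in these results was not tested. Macrophage and monocyte markers did not exceed a sum of 8.76 CPM in any of the 6 libraries.

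Some large families had no calls, where 3.68% of all genes tested were called. In lists of 32 to 69 genes, 0 calls are near that share, so no conclusion is drawn. EdgeR called 0 of 61 splicing factors (20 at an unadjusted p under 0.05, 0 by DESeq2 and 0 by limma-voom), although 2 were higher and 21 lower without Tc0-728. It called 0 of 69 histone methylation genes (15 at an unadjusted p under 0.05, 3 by DESeq2 and 1 by limma-voom), with 8 higher and 6 lower without Tc0-728. Of 32 p53 target genes it called 0 (8 at an unadjusted p under 0.05, 3 by DESeq2 and 0 by limma-voom), with 1 higher and 4 lower without Tc0-728. Of 73 actin regulators, 5 were higher, or 6.85% against 2.48% over all genes tested. Of 76 tested without Tc0-728, 21 were higher and 2 lower. The 5 calls were lost without the block. Capg, which caps actin filaments, kept its call without each library. It had 56.7, 39.1 and 84.4 CPM in Tc0 and 98.2, 99.7 and 125 CPM in Tc22 (0.90, SE 0.14, adjusted p = 0.00852, 0.283 without the block).

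**Figure D5:**
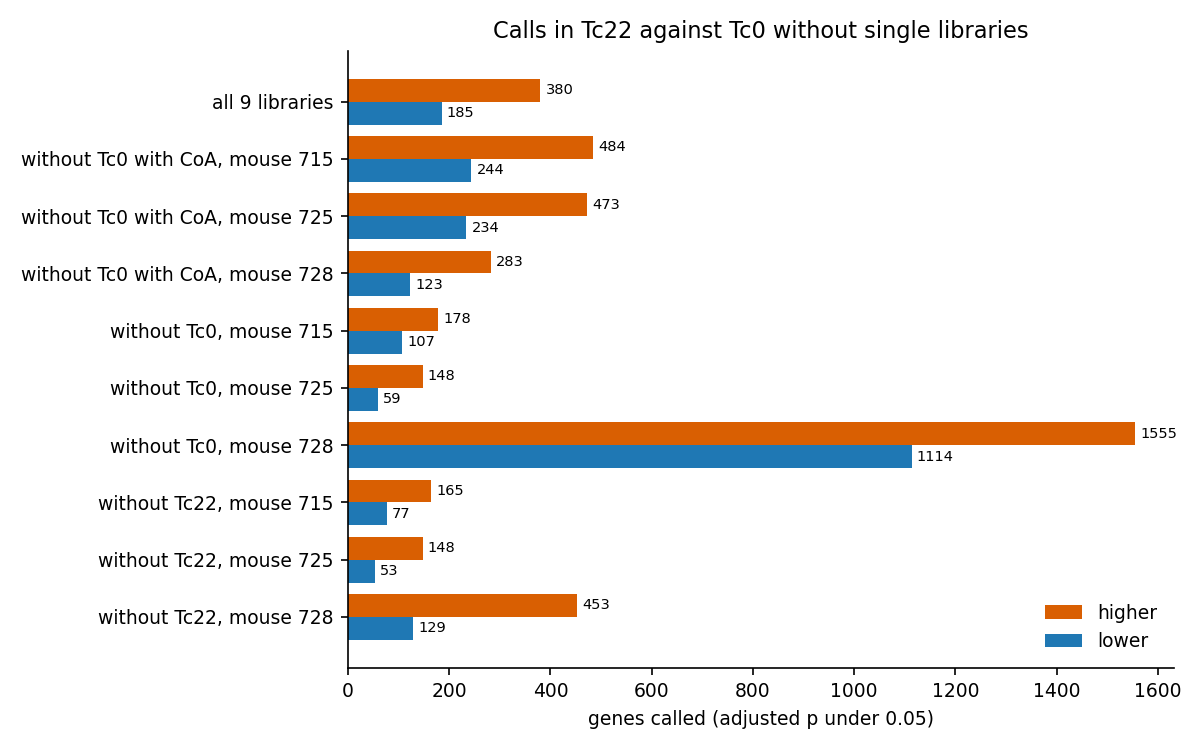
Number of genes called higher (orange) and lower (blue) in Tc22 cells with all 9 libraries and without each library in turn. Leaving out the Tc0 library of mouse 728 gives by far the most calls (1555 and 1114), and leaving out a library of mouse 725, Tc0 or Tc22, gives the fewest.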

How the data were processed

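RNA was sequenced from 9 libraries of mouse CD8+ T cells. The deposited table and the 9 single files hold whole-number counts per gene, made by the authors and identical to each other; tools named in the submitters' processing notes, whose roles are not stated, are STAR 2.5.2 and RSEM 1.3.0, with the builds GRCm38 and mm10. The sources used here do not give the annotation release or whether counting used strand. Names and positions came from GENCODE (GRCm38) for 53650 of 53679 IDs, and the other 29 held 0.0048% of counts. From the counts, edgeR 4.0.16 (R 4.3.3) was run on all 9 libraries with TMM scaling, the filterByExpr filter by group, and terms for group and mouse, which left 4 residual degrees of freedom and a common biological coefficient of variation of 0.158. Benjamini-Hochberg adjustment covered all 15348 genes tested, with a threshold of 0.05. Each SE is the log2 fold change over the square root of F.

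The series' design text says that every population came from each mouse, which makes mouse a pairing. Over 9 same-mouse pairs of libraries, deviations from the group means correlated at 0.0699 to 0.617 (mean 0.36). No source gives separate cultures within a mouse. The block takes out differences in level between mice. P-values thus rest on how much differences between groups varied among these 3 mice, over all 9 libraries.

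The members and lists were chosen with earlier results of these data known, and the lists of immunity-related GTPases, very large GTPases, IFITM and NF-kB genes after their values had been seen. Named genes are, among called genes with 1 sign in all 3 mice and at least 2 CPM in the higher group, those with the largest changes or smallest p in each direction, plus up to 4 called members of each list. Gm4841, F830016B08Rik, Cd163l1, Espn, Mycl, Podnl1, Gstt3, Cytip and some members of the described families, among them Relb, Nfkb2, Ifitm1, Irgm2 and Tnfrsf4, lie outside that rule and were named after their values were seen. A few called members of the lists are not reported here. Promoter sequences are from RefSeq (GRCm38.p6). Alternatives were RLE, upper-quartile or library-size scaling, other filters, DESeq2 1.42.0, limma-voom (limma 3.58.1), no block, the 2 groups alone, and leaving out each library or mouse. On simulated data for this comparison (15069 genes), the test recovered 67% of 2-fold and 92% of 4-fold changes, with 14 false calls of 173.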

Additional observations from a re-analysis of the deposited data

How the results depend on the processing

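Rises numbered 380 with the reported settings and falls 185. Scaling by RLE, upper quartile or library size, limma-voom, a filter at 1 CPM and a fit of the 2 groups alone kept these 2 counts within 1.5 times. With no low-count filter 831 genes were higher and 444 lower, and DESeq2 called 621 higher and 332 lower. Without the replicate block, which takes out the pairing by mouse, 87 were higher and 33 lower, and 2097 genes differed between Tc22 cells and Tc0 cells given CoA, against 4913 with it. Leaving out 1 library or 1 mouse at a time gave 148 to 1555 rises, 53 to 1114 falls and 1848 to 5913 genes that differed between Tc22 cells and Tc0 cells given CoA. The most rises and falls came with the Tc0 library of mouse 728 left out, and the fewest falls with the Tc22 library of mouse 725 left out. Of the 565 genes called, 551 were also called without that Tc0 library and 195 without that Tc22 library. Ifngr1, which was not called, changed sign in 2 fits: its log2 fold change of -0.08 became 0.11 with the Tc0 library of mouse 725 left out and 0.05 with the Tc22 library of mouse 715 left out, in a range of -0.28 to 0.11 over single libraries or mice left out. No other named gene changed direction. Of the named genes, 86 were called without each single library and 52 in every alternative run. The causes of these changes were not tested. Ifitm3 and Cd4 were not called by DESeq2 or limma-voom. Depth limits genes with 3 counts or fewer in a Tc0 or Tc22 library, such as Kif1a, Cxcr1, Il21 and Fbln2, for which no fold change is given.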
